A study of Homo sapiens with 8 samples.

Results

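The set described here holds 7 genes of the Notch pathway: the receptors NOTCH1, NOTCH2 and NOTCH3, the ligands JAG1 and JAG2, and the transcription factors HES1 and HES7. They were chosen by gene name, and their N6-methyladenosine (m6A) peaks were read from 4 lists of human osteosarcoma cells that name 8758 genes in 130622 peaks. Of the 7 genes, 6 had at least 1 peak, with 28 peaks in all. JAG2 had no row in any list, under this name or its older names in RefSeq. The lists come from MeRIP-seq, which sequences RNA fragments pulled down by an m6A antibody beside the same RNA before pull-down (input).

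The cells were U2OS and 143B, both established osteosarcoma lines, and each was infected with a lentiviral short hairpin RNA. In the 2 control groups the hairpin is labelled shNC (NC), and in the other 2 groups it targets METTL14 (shMETTL14), which pairs with METTL3 in the methyltransferase for m6A. Each group has 1 immunoprecipitated library with 1 peak list, and 1 input library that enters only through that list. The labels do not say whether the infected cells were pooled or cloned, and a peak list does not measure RNA level, so the extent of the knockdown was not checked here. METTL14 itself was listed with 5 peaks in U2OS NC, 2 in U2OS shMETTL14, 1 in 143B NC and 4 in 143B shMETTL14. Of 8 osteosarcoma or mesenchymal markers, 3 or 4 had a peak in each list. VIM, COL1A1, RUNX2, THY1 and CD44 had one in at least 1 list, and COL1A2, SPP1 and ALPL in none. No blood or immune marker of 5 had a peak, 1 endothelial marker of 5 (TIE1, in 143B NC only), 2 epithelial markers of 4 (KRT8 and KRT18) and 2 neural markers of 3 (TUBB3 and MAP2) had one in some list. A missing peak can mean unmethylated, weakly methylated or scarce RNA, and the lists do not separate these.

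Notch receptors are single-pass membrane proteins that are activated by Jagged or Delta ligands on a neighbouring cell. Cleavage then frees the receptor's intracellular part, which enters the nucleus, binds RBPJ with a Mastermind coactivator and switches on target genes. HES1 and HES7 are basic helix-loop-helix repressors and classical targets of this pathway, and HES7 is best known as part of the segmentation clock of the embryo. In bone, Notch signalling restrains osteoblast differentiation, and m6A in messenger RNA is typically found around stop codons and in long internal exons.

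NOTCH2, JAG1 and HES1 had peaks in all 4 lists, as did 4463 of the 8758 genes. NOTCH3 was listed only in U2OS and HES7 only in 143B, each with both hairpins, and NOTCH1 only in 143B shMETTL14. When overlapping peaks were joined over all lists, the 28 peaks fell at 8 places, of which 4 were listed in every list: 1 on NOTCH2, 1 on JAG1 and 2 on HES1. A further 2 places, on NOTCH3 and HES7, were listed with both hairpins of 1 line. The remaining places were listed once, 1 on NOTCH1 and a small one on HES1. No peak of another gene overlapped any of the 8 places on either strand.

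**Figure D1:**
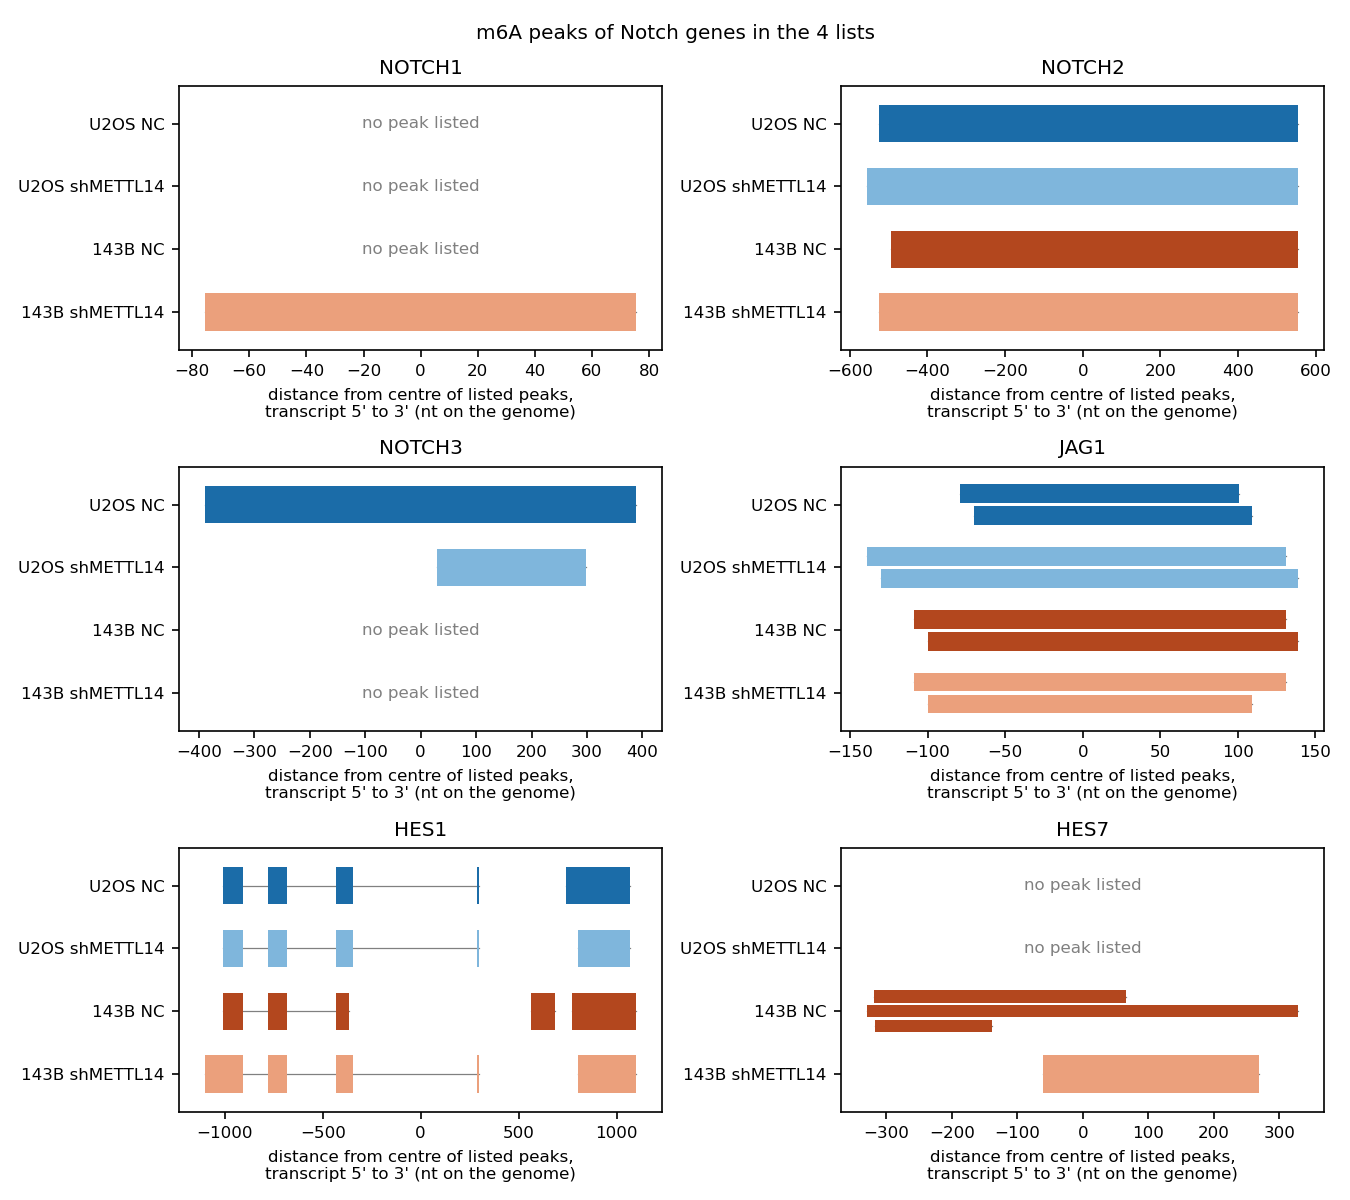
Each panel maps the peaks of 1 gene in the 4 lists against the distance in nt on the genome from the centre of all its listed peaks, drawn in the 5' to 3' direction of the transcript. Bars are the sequenced blocks of a peak, thin lines join blocks of 1 peak across introns, and stacked bars within a list are peaks listed for different transcripts of the gene. NOTCH2 ends at the same position in every list, NOTCH3 goes from 778 to 270 nt in U2OS, and HES7 from 658 to 329 nt in 143B.

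Most of the peaks lay across the stop codon, that is, they were listed in both coding sequence (CDS) and 3' UTR. This held for 16 of the 28 peaks (57.1%), on 5 of the 6 listed genes, while 16.1% of all peaks in the 4 lists were of this kind. The exception was NOTCH1, whose single peak was in the CDS. Peaks of 1 gene that are listed for several transcripts share their reads. The 28 peaks also fell at only 8 places, 4 of them listed in all 4 lists. The same places are thus counted more than once, and the 28 peaks are not independent. The 16.1% was also counted over peaks, and no share by place was computed.

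NOTCH2, one of the receptors, carried 1 broad peak across the stop codon in each list, on transcript ENST00000256646.2 on the minus strand of chromosome 1 (build hg19). In U2OS NC it ran from 120457323 to 120458402 (1080 nt), with an authors' p-value of 1.26e-14 and a fold enrichment of 3.76. In U2OS shMETTL14 it ran to 120458432 (1110 nt), with a p-value of 7.94e-16 and a fold enrichment of 3.42. In 143B NC it ran to 120458372 (1050 nt; 2.51e-12 and 3.75), and in 143B shMETTL14 to 120458402 (1080 nt; 3.16e-12 and 4.04). Its 3' edge was the same base in all 4 lists, and its 5' edge differed by 30 nt between NC and shMETTL14 in both lines. The p-value and the fold enrichment are the authors' values for each peak within its own list, and their scaling between lists is not given in the sources used here. The NOTCH2 peak was among the widest of every list, wider than 98.1% to 98.7% of peaks. Its fold enrichment was near the middle of each list, above 47.2% to 58.1% of peaks. NOTCH2NL, a truncated copy of the first exons of NOTCH2 that is named here after its values were seen, had 2 peaks in every list except U2OS shMETTL14, where it had 0. How reads of the copied exons were divided was not tested. The NOTCH2 peaks, at the stop codon, lie outside those exons.

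NOTCH3, a receptor best known from vascular smooth muscle, had 1 peak in each U2OS list on ENST00000263388.2, on the minus strand of chromosome 19. With NC it covered 15270952 to 15271729 (778 nt) across the stop codon, with a p-value of 5.01e-12 and a fold enrichment of 4.49. With shMETTL14 it covered 15271042 to 15271311 (270 nt) within the 3' UTR, with a p-value of 4.17e-07 and a fold enrichment of 3.63. The shorter peak lay wholly inside the longer one and held 34.7% of its bases, so the coding part and both flanks of the NC peak were not listed with shMETTL14. The NC peak was stronger by p-value than 75.5% of its list, and the shMETTL14 peak than 55.3% of its own. In 143B, NOTCH3 had no row with either hairpin.

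NOTCH1, the receptor mutated in T-cell leukaemia, had 1 peak in 143B shMETTL14 and none in the other 3 lists. The peak lay in the CDS of ENST00000277541.6 on the minus strand of chromosome 9, from 139391620 to 139391770 (151 nt). It was weak for its list: its authors' p-value was 0.00126, against a maximum of 0.00603 in that list, and 7.04% of its peaks had a larger one. Its fold enrichment of 4.21 was above that of 60.8% of peaks. It covered 1.61% of a transcript of 9371 nt.

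JAG1, a Notch ligand, was listed in every list at 1 place on the minus strand of chromosome 20, with 2 peaks in each list that belong to different transcripts and have slightly shifted edges. On the longer transcript (ENST00000254958.5, 5987 nt) the U2OS NC peak ran from 10620158 to 10620337 (180 nt) in the CDS, with a p-value of 1.66e-05 and a fold enrichment of 3.32. In U2OS shMETTL14 it ran from 10620128 to 10620397 (270 nt) across the stop codon, with a p-value of 2.51e-12 and a fold enrichment of 6.26. Both 143B lists gave the same peak, from 10620128 to 10620367 (240 nt) across the stop codon, with a p-value of 2e-11 and a fold enrichment of 6.52 with NC and of 2.57e-09 and 4.94 with shMETTL14. U2OS NC thus had the narrowest listing and the weakest place by p-value, stronger than 43.0% of its list against 61.1% to 75.5% in the other 3. The 188 nt that were covered in U2OS NC, with both transcripts joined, were covered in every list.

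The fold enrichment of JAG1 depended on the transcript in the NC lists. In U2OS NC the shorter transcript (ENST00000423891.2, 3758 nt) was listed with a fold enrichment of 20.5, rank 275 of 32353 peaks, over an interval shifted by 8 to 9 nt from that of the longer transcript. The ratio of the 2 values was 6.17, where the median ratio of highest to lowest over 7342 U2OS NC sites listed for more than 1 transcript of 1 gene was 1.06, and 99.6% of them had a lower ratio. In 143B NC the values were 13.7 and 6.52 (ratio 2.1, above 94.8% of 7520 sites). With shMETTL14 they were 6.26 and 6.26 in U2OS, and 4.88 and 4.94 in 143B. The fold enrichment of JAG1 with NC therefore has no single value. The p-values of the shorter and the longer transcript were, in the U2OS lists, 9.12e-06 and 1.66e-05 with NC and 2.51e-11 and 2.51e-12 with the hairpin against METTL14. The 143B lists gave 1e-10 and 2e-11 with NC and 1.45e-08 and 2.57e-09 with that hairpin.

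HES1, the best-studied Notch target repressor, had the most peaks of the set, all on ENST00000232424.3 on the plus strand of chromosome 3. The transcript is short (1578 nt), and its peaks covered 39.7% of it in U2OS NC, 36.0% in U2OS shMETTL14, 45.4% in 143B NC and 43.5% in 143B shMETTL14. The first place lay in the 5' part of the CDS and was spliced over several exons. In both U2OS lists it had the same 4 blocks (193854172 to 193855480, 299 nt), with a p-value of 3.98e-14 and a fold enrichment of 3.75 with NC and of 1e-12 and 3.35 with shMETTL14. In 143B NC it had 3 blocks (193854172 to 193854816, 269 nt; 3.16e-12 and 3.03). In 143B shMETTL14 it had 4 blocks and reached into the 5' UTR (193854083 to 193855480, 388 nt; 3.16e-13 and 2.88), the only peak of the set that was listed there. All bases of the NC peak were covered with shMETTL14 in both lines.

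The second HES1 place crossed the stop codon in all 4 lists. It ran from 193855926 to 193856253 in U2OS NC (328 nt; 3.98e-12 and 3.1) and from 193855985 to 193856253 in U2OS shMETTL14 (269 nt; 1.29e-09 and 3.08). In 143B it ran from 193855956 to 193856283 with NC (328 nt; 1.05e-08 and 3.26) and from 193855985 to 193856283 with shMETTL14 (299 nt; 5.01e-11 and 2.5). In both lines the 3' edge was the same with either hairpin and the 5' edge lay further 3' with shMETTL14, so the listed length fell by 59 nt in U2OS, from 328 to 269, and fell by 29 nt in 143B, from 328 to 299. Between these places, 143B NC alone had another peak in the CDS, from 193855747 to 193855866 (120 nt), with a p-value of 0.000269 and a fold enrichment of 3.48. It was stronger by p-value than 25.2% of its list, and the nearest HES1 peak of 143B shMETTL14 began 118 nt away. The fold enrichments of HES1 were low to middling, above 23.8% to 53.6% of their lists, while its 8 peaks at the outer places were stronger by p-value than 66.8% to 80.0%.

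HES7, the clock repressor, had the 2 highest fold enrichments of the set and was listed only in 143B, on the minus strand of chromosome 17. With NC it was listed for 3 transcripts that form 1 site. On ENST00000541682.2 the peak ran from 8024655 to 8025312 (658 nt) across the stop codon, with a p-value of 3.98e-11 and a fold enrichment of 41.7, rank 12 of 33082 peaks. On ENST00000317814.4 it ran from 8024918 to 8025301 (384 nt; 1.23e-08 and 30.0), and on ENST00000577735.1 from 8025122 to 8025300 (179 nt; 4.9e-07 and 10.0), both in the CDS. The ratio of the highest to the lowest fold enrichment, 4.17, was above that of 98.9% of the 7520 such sites of the list. With shMETTL14, HES7 had 1 peak on ENST00000541682.2, from 8024715 to 8025043 (329 nt) across the stop codon, with a p-value of 0.000257 and a fold enrichment of 14.4. It lay wholly within the NC site, toward its 3' end, and covered 50% of it. By p-value the 3 NC peaks were stronger than 59.0% to 74.2% of their list, and the shMETTL14 peak than 20.9% of its own. In both lists the fold enrichment stayed high in rank, above at least 92.4% of peaks. In U2OS, HES7 had no row with either hairpin.

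**Figure D2:**
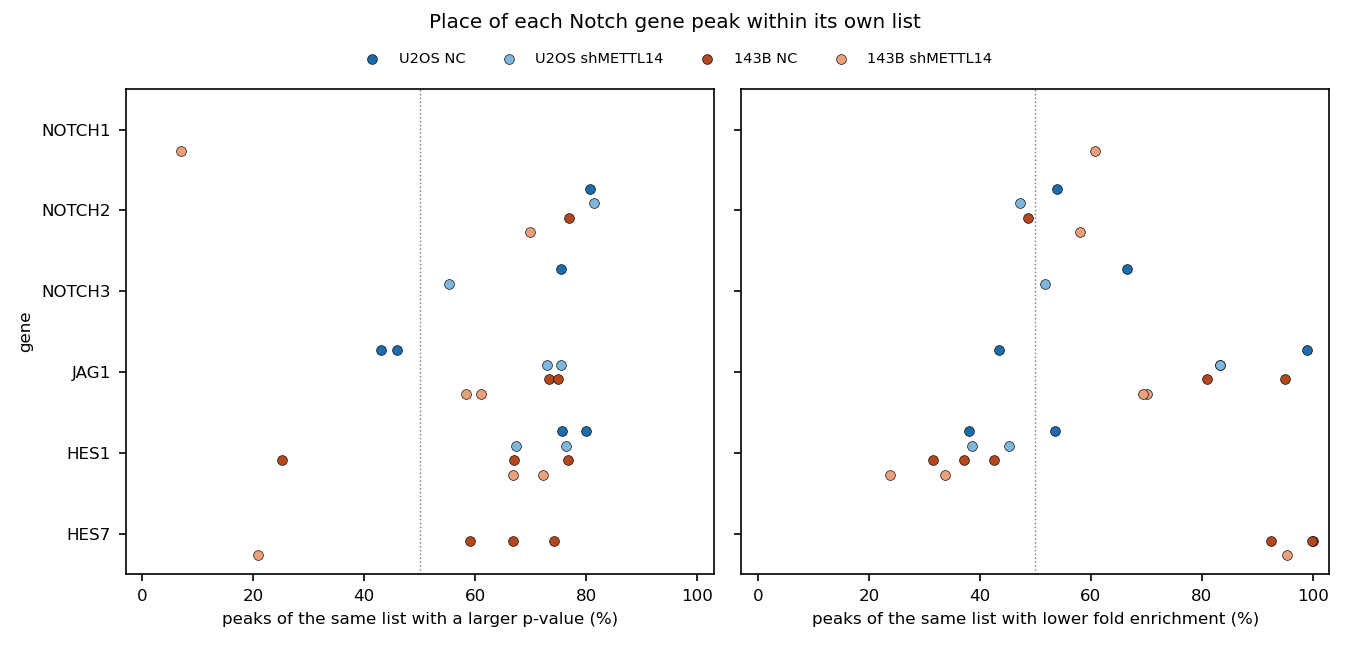
Each point is 1 peak, placed on the left by the percentage of peaks in its own list with a larger (weaker) p-value and on the right by the percentage with a lower fold enrichment; rows are genes, colours are lists and the dotted line marks 50%. NOTCH2 and the outer HES1 peaks sit on the strong side by p-value with middling or low fold enrichment, 2 of the 4 HES7 peaks are the highest points by fold enrichment (rank 12 and 43 of their list), and the NOTCH1 peak is weak by p-value, with 7.04% of its list weaker.

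The comparison of the series is that of m6A peaks with the 2 hairpins. Peaks of a line were partners when their spliced blocks shared at least 1 bp with the strand matching. Below, lost peaks are those of NC without a partner and gained peaks those of shMETTL14 without one, which are statements on the lists and not on the RNA. In U2OS every peak of the set had a partner: 0 of 6 NC peaks were lost, which allows a share of up to 50%, beside 26.9% of all peaks in the list. Likewise 0 of 6 shMETTL14 peaks were gained, beside 20.9% of all peaks. Joined to sites, 0 of 5 were lost and 0 of 5 gained, beside 31.2% and 24.9% of all sites. Intervals and limits hold counting error alone, as if each peak were an independent draw.

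In 143B, 2 of 9 NC peaks were lost (22.2%, exact Clopper-Pearson 95% interval 2.81 to 60), beside 20.7% of all peaks. These were the small HES1 peak in the CDS and the HES7 peak of 179 nt, which ended 78 nt from the shMETTL14 peak. Of the 7 shMETTL14 peaks, 1 was gained (14.3%, interval 0.361 to 57.9), that of NOTCH1, beside 27.3% of all peaks. In sites, 1 of 6 was lost (HES1) and 1 of 6 gained (NOTCH1), beside 24.6% and 32.0% of all sites. The shares of the set lay within counting error of the background in 143B, and in U2OS the limit on a share of 0 lay above the background. Each group has a single list, so there was no replicate to compare with and no test was made.

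The overlap rule does not register a change in extent. Within kept places, the listed length of NOTCH3 in U2OS fell by 508 nt with shMETTL14, from 778 to 270, and that of HES7 in 143B fell by 329 nt, from 658 to 329. JAG1 in U2OS went from 188 to 278 nt, and in 143B from 248 to 240 nt. NOTCH2 was listed over 30 nt more in both lines. Its length differed as much between U2OS and 143B, with 1080 and 1050 nt with NC and 1110 and 1080 nt with shMETTL14. The resolution of the peak edges is not known, so changes of 29 or 30 nt may not be changes in extent. The first HES1 place kept 299 nt in U2OS and was listed over 119 nt more in 143B, from 269 to 388, and the second fell by 59 nt in U2OS and fell by 29 nt in 143B.

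Between the lines, 5 of the 6 U2OS NC peaks had a 143B NC partner (83.3%, interval 35.9 to 99.6), beside 69.8% of all U2OS NC peaks. The peak without one was that of NOTCH3. Of the 9 peaks of 143B NC, 5 had a U2OS NC partner (55.6%, interval 21.2 to 86.3), beside 68.6% of all, and those without were the 3 HES7 peaks and the small HES1 peak. With shMETTL14, 5 of 6 U2OS peaks had a 143B partner, beside 78.0% of all, and 5 of 7 peaks of 143B had a U2OS partner, beside 65.4%. NOTCH3 again lacked one in U2OS, and NOTCH1 and HES7 in 143B. In sites, 4 of 5 in U2OS NC were shared (65.7% of all) and 4 of 6 in 143B NC (63.1%), and the counts were the same with shMETTL14 (beside 75.0% in U2OS and 59.9% in 143B). The receptors thus differed in where they were listed: NOTCH2 in both lines, NOTCH3 in U2OS and NOTCH1 in 1 list of 143B. Whether their RNA levels differ in the same way was not tested.

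The genes most like each member were taken by the number of sites in the 4 lists. Apart from themselves, NOTCH2 and JAG1 each matched 1000 of 8715 genes on chromosomes 1 to 22 and X with 1 site in every list, among them RBPJ, ADAM17 and HEY1 of the pathway. NOTCH1 shared its pattern with 455 genes, including HES2, HEYL, ITCH, POGLUT1 and PSEN2. HES7 shared its pattern with 364 genes, including TLE4, and NOTCH3 with 230, including DTX1. HES1, with 2, 2, 3 and 2 sites, matched 48 genes (0.551%), of which AC008443.1, AEBP1 and C1orf174 come first by name, and none was of the pathway.

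A further 63 genes of the Notch pathway were examined, of which 39 had a peak in some list and 23 in all 4. In U2OS, 34 of their 150 NC peaks were lost (22.7%, interval 16.2 to 30.2, beside 26.9% of all) and 17 of 132 shMETTL14 peaks gained (12.9%, interval 7.68 to 19.8, beside 20.9%). In 143B, 25 of 168 were lost (14.9%, interval 9.87 to 21.2, beside 20.7%) and 26 of 164 gained (15.9%, interval 10.6 to 22.4, beside 27.3%). In sites, 18 of 67 were lost and 14 of 62 gained in U2OS, beside 31.2% and 24.9% of all sites, and 14 of 80 lost and 15 of 76 gained in 143B, beside 24.6% and 32.0%. Peaks of 1 gene share reads, so these intervals are too narrow.

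Of the other receptor and ligand genes, only DLK2, a non-canonical ligand, was listed, with 6 peaks at 3 sites in U2OS shMETTL14, all gained; NOTCH4, DLL1, DLL3, DLL4, DLK1 and DNER had no row. Among the proteases that cleave the receptor, 3 of 18 NC peaks were lost in U2OS (16.7%, beside 26.9% of all). In 143B, 4 of 14 were lost (28.6%, beside 20.7%). Gained were 1 of 16 in U2OS (6.25%, beside 20.9%) and 4 of 14 in 143B (28.6%, beside 27.3%). ADAM10, which makes the first ligand-induced cut, lost 3 of 7 peaks in U2OS and 3 of 4 in 143B. In each case this was 1 site, at different places in the lines. The lost peak with the lowest p-value lay in the 5' UTR in U2OS (chromosome 15, 59041739 to 59041856). In 143B it lay in the 3' UTR (58889470 to 58889530). PSEN2, a catalytic subunit of gamma-secretase, had 4 peaks at 1 site in 143B shMETTL14 and none elsewhere, and APH1B 1 peak in U2OS shMETTL14 only. NCSTN, which also belongs to gamma-secretase, lost 1 of 5 peaks in 143B, while its 1 site was kept. ADAM17, FURIN and PSENEN lost and gained 0 peaks in both lines.

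In the nuclear complex, RBPJ, the DNA-binding partner of the receptors, kept all 7 peaks in U2OS and all 8 in 143B. These peaks form 1 site in each list. Of the Mastermind coactivators in U2OS, MAML2 lost 5 of 7 peaks, which are 7 separate sites, and gained 2 of 3. MAML3 lost all 4 (2 sites) and gained 1 at another place, and MAML1 lost 1 of 2 and gained 1 of 2. In 143B, MAML2 lost 1 of 5 and gained 2 of 6, MAML3 lost 2 of 7 and gained 1 of 7, and MAML1, with 5 peaks with NC and 4 with shMETTL14, lost and gained 0. EP300, an acetyltransferase coactivator, gained 1 peak in U2OS and lost 1 in 143B, in both cases in the 5' UTR. SNW1 lost 2 of 5 peaks (1 site) in each line. CREBBP lost 1 of 12 and gained 2 of 13 peaks in U2OS, and gained 1 of 13 in 143B. Of the corepressor peaks, 11 of 56 were lost in U2OS (19.6%, beside 26.9%) and 6 of 61 in 143B (9.84%, beside 20.7%). Gained were 2 of 50 in U2OS (4.0%, beside 20.9%) and 12 of 63 in 143B (19.0%, beside 27.3%). TLE2 lost all 8 peaks in U2OS, which are 1 site, and SPEN lost 3 and gained 2 of 11 there. CTBP1 lost both of its peaks (1 site) in 143B. TLE4 lost 1 and gained 1 of its 3 peaks in 143B, all of 1 site that was kept, and CTBP2 gained 1 of 9 there. NCOR1 lost 2 of 20 peaks and gained 6 of 24 (2 sites) in 143B, and TLE3 gained 4 of 13 (1 site).

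Among regulators of turnover, DTX4, a Deltex ubiquitin ligase, had peaks only with NC, at different places in the lines: 1 in U2OS across the stop codon (chromosome 11, 58972359 to 58972478) and 2 in 143B at 1 site in the CDS (the stronger at 58949703 to 58949792). MIB2 lost its 5 peaks (1 site) in U2OS and MIB1 its 1 in 143B; both are ubiquitin ligases that drive ligand endocytosis. FBXW7, which targets the receptor's intracellular part for degradation, lost 1 of 11 peaks and 0 of 3 sites and gained 2 of 13 peaks in 143B, and ITCH had 1 peak, gained in 143B. In this turnover group, 6 of 26 peaks were lost in U2OS (23.1%, beside 26.9%) and 4 of 31 in 143B (12.9%, beside 20.7%). Gained were 0 of 19 in U2OS (beside 20.9%) and 3 of 30 in 143B (10.0%, beside 27.3%). Of the sugar-adding enzymes, POFUT1 lost 1 and gained 1 peak in U2OS, EOGT lost its 3 peaks (1 site) in 143B, and POGLUT1 gained 1 there. HES2 and HEYL, relatives of the HES genes, each had 1 peak, in 143B shMETTL14, and HEY2 had 2, lost in 143B. HEY1 kept a place in all lists, with 3, 2, 3 and 3 peaks. The groups of sugar-adding enzymes and of HES relatives each held at most 6 peaks in any list, too few to read a share from.

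**Figure D3:**
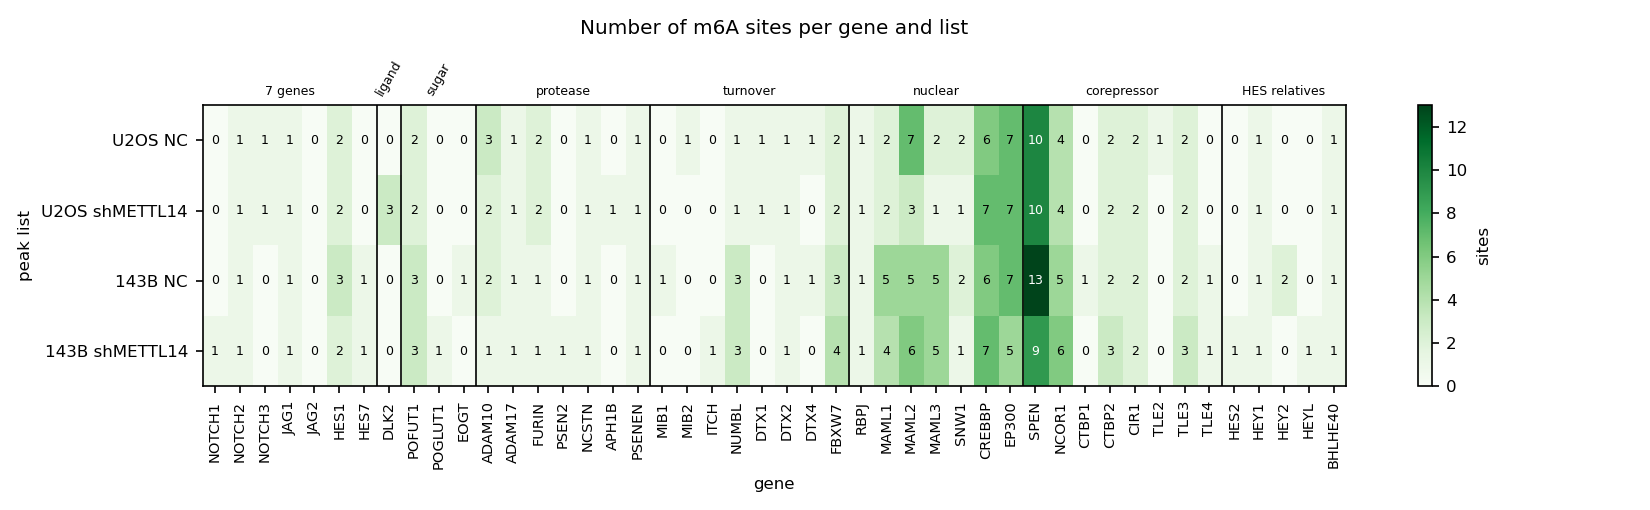
Rows are the 4 peak lists, columns the 7 genes of the set and the 39 listed pathway genes grouped by role, and the number and shade give sites (overlapping peaks of a list joined). NOTCH2 and JAG1 have 1 site in every list and HES1 2 or 3, while the corepressor SPEN has 9 to 13.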

How the data were processed

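Human osteosarcoma libraries (8, of which 4 are inputs) gave 4 peak lists. FastQC 0.11.5, Trimmomatic and HISAT2, with hg19 (GRCh37) as the build, are named per the submitters' processing notes; not given in the sources used here: peak caller, threshold, annotation, depth. Per the file headers, each peak has a p-value and a fold enrichment, a linear ratio, both deposited by the authors. Deposited starts count from 0 and are printed from 1.

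Groups came from the sample titles. Rows were taken by gene name, matched by overlap (at least 1 bp of spliced blocks, same strand) and, within a list, joined to sites. Intervals are exact Clopper-Pearson (95% level), and a share of 0 carries the limit from 3 counts. The genes and the pathway list were chosen with earlier results of these data known. Of the pathway list, the text names, per role, line and direction, the 2 genes with the lowest p-value among lost or gained peaks, and genes whose peaks were all lost or gained; others were named after their values were seen. Genes with similar numbers of sites were ranked by summed difference, then by name; of large ties only pathway genes are named. Alternatives changed the overlap rule, strand, peaks used and unit. Some genes of the pathway list are not reported here and are in none of its counts. The overlap code was checked on 1 deposited list with sites removed at random and on a few made-up intervals. This checks the code, and does not show how the overlap rule handles shifted peak edges. An hg19 genome was not used here, so no sequence is shown. Tools were Python 3.11.15 with numpy 2.4.6, pandas 2.3.3, scipy 1.17.1 and matplotlib 3.10.9.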

Additional observations from a re-analysis of the deposited data

Results flagged for a closer look

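The place on JAG1 was listed over more bases with shMETTL14 than with NC in U2OS (by 90 nt, 188 to 278) and over fewer in 143B (-8 nt, 248 to 240), so the sign of the joined length differed between the lines. The 143B value comes from the edge of 1 of the 2 transcripts, and on the longer one the peak was 240 nt with both hairpins. With 1 list per group the difference was not tested.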

How the results depend on the processing

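Of 44 recomputed counts, 34 kept the reported value or stayed within 1.5 times of it and 10 did not. Counts of U2OS peaks shared with 143B stayed at 5, or 4 in sites, under the 4 alternatives run for them, against 9 for lost and gained peaks. Those 4 changed the overlap rule or the unit. The limits on p-value and fold enrichment were not applied to these counts. Requiring 50% of each peak gave 1 lost and 1 gained peak in U2OS (both NOTCH3) in place of 0. Using only the upper 50% of each list by fold enrichment gave 2 lost in U2OS (HES1 and NOTCH2), 1 lost in 143B (HES7) and 2 gained in 143B (NOTCH1 and NOTCH2). HES1 in U2OS and NOTCH2 in both lines were called because their partner lay in the lower part of its own list, while the HES7 and NOTCH1 calls are those reported and the small HES1 peak of 143B was no longer counted. A stricter p-value limit, the median of the NC list, gave 2 gained in U2OS (both JAG1) and 0 gained in 143B, since the NOTCH1 peak was above that limit. It also gave 3 of 8 lost in 143B, all HES7, in place of HES1 and 1 HES7 peak, so that under this limit no HES7 peak was kept. Requiring 50% of the shorter or of each peak gave 3 of 9 lost in 143B, of which 2 were on HES7. The 2 lost peaks of 143B became 1 (HES1) when peaks within 100 bp counted as shared, in sites, and with 1 transcript per gene. No paired analysis was possible because the labels carry no replicate numbers and no result comes from a test. Depth is unknown, and with 1 library per group no replicate could be left out.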
